A study of Mus musculus with 24 samples.

Results

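The kynurenine pathway is the main route by which mammalian cells break down tryptophan, and it ends in quinolinate, from which NAD+ can be made de novo. The 9 genes described here, Ido1, Ido2, Tdo2, Afmid, Kmo, Kynu, Haao, Acmsd and Qprt, were chosen by symbol as the enzymes of that route, and all 9 were found among the 54658 symbols of both count tables. RNA had been sequenced in sets of mice with peritonitis, all of them male C57BL/6 animals aged 7 to 12 weeks that received intraperitoneal β-NMN, a precursor of NAD+, at 185 mg/kg per day or saline (vehicle) from the induction of peritonitis on, the last dose 24 h before the animals were killed. Peritoneal cells came from 6 vehicle and 6 β-NMN mice injected with 1 mL of 4% thioglycollate medium (TGC), which draws macrophages into the cavity, and dosed once a day. The lavage cells of every mouse in both groups were then incubated for 6 h with E. coli at 15 bacteria per cell, so no unstimulated cells were compared. Hearts and lungs came from 3 vehicle and 3 β-NMN mice after cecal ligation and puncture (CLP), which releases gut bacteria into the peritoneum, each mouse giving both organs 24 h after surgery and thus after the dose given right after it, and no sham-operated mice were among these samples. The source labels of the organs name thioglycollate, whereas their titles and tissue labels give CLP. The peritoneal samples were lavage cells without any sort for macrophages. The cells were plated for the incubation, and the supernatant was removed before their RNA was preserved.

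Tryptophan enters the pathway through 1 of 3 dioxygenases, Ido1, Ido2 and Tdo2, which open its indole ring. Ido1 is the inducible enzyme of dendritic cells and macrophages and is a classical target of interferon-γ, Ido2 is its neighbor and close relative, and Tdo2 is best known from liver. Afmid then releases kynurenine, Kmo hydroxylates it, Kynu cleaves kynurenine and its hydroxylated form, and Haao makes the precursor of quinolinate. Acmsd diverts that precursor away from NAD+, whereas Qprt turns quinolinate into the nucleotide that feeds NAD+ synthesis. Kynurenine and its product kynurenic acid are also signals, acting on the aryl hydrocarbon receptor (AhR) and on Gpr35. β-NMN belongs to another route, the salvage of nicotinamide, and is converted to NAD+ directly.

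Ido1 and Ido2 lie next to each other on the minus strand of chromosome 8 of GRCm38 (mm10), Ido1 at 24584136 to 24597009 and Ido2 at 24531892 to 24576333, with 7802 bases between them in the GENCODE M21 annotation. Since they moved differently, their sequences were compared to see whether reads could be told apart. For each gene the transcript with the longest coding sequence was used, and the other annotated transcripts were not compared. Of 1177 aligned coding bases 719 (61.1%) were identical. The longest stretch shared exactly by these transcripts was 15 bases, against reads of 150 bases. That stretch is shown in capitals below, with the 24 coding bases on each side of it in lower case, in the direction of the transcript and within a coding exon (Ido1 chr8:24593132-24593194, Ido2 chr8:24553760-24553822).
Ido1: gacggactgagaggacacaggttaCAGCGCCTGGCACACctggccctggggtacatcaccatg
Ido2: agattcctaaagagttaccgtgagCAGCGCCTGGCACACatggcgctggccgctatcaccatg
The bases on both sides of the shared stretch differ at many places, so a read of 150 bases from these transcripts could be placed on 1 of the genes. The other genes lie on chromosome 3 (Tdo2, 81957090 to 81976202), chromosome 11 (Afmid, 117825924 to 117839908), chromosome 1 (Kmo, 175620381 to 175662116, and Acmsd, 127729413 to 127767978), chromosome 2 (Kynu, 43555329 to 43682715), chromosome 17 (Haao, 83831156 to 83847963) and chromosome 7 (Qprt, 127107114 to 127122226). Afmid overlaps Gm20708 on its own strand and Tk1 on the other, Kmo overlaps Fh1 on the other strand, and Acmsd overlaps the antisense gene 2900009J06Rik. The sources used here do not give whether the counting used strand, so the levels of Afmid, Kmo and Acmsd are uncertain.

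Levels are given as CPM (counts of a gene relative to the reads of its library, scaled within each tissue), and n is the number of mice. The libraries held 31126823 to 112456050 counted reads in peritoneal cells, 27319513 to 68523239 in hearts and 8915366 to 28356786 in lungs. The lung library of vehicle mouse 2 had the fewest reads, 8915366. Vehicle mouse 2 stood apart in both organs, with a distance to the other libraries of its organ of 0.99 in heart and 1.57 in lung (SD of log2 CPM differences), against 0.386 to 0.577 in the other hearts and 0.45 to 0.602 in the other lungs, and the changes of the tested members without this mouse are given for each organ. Hearts carried cardiomyocyte markers (29611 to 52362 CPM over 5 genes) and lungs alveolar markers (25754 to 46865 CPM over 5 genes). In peritoneal cells the 6 macrophage markers summed to 5366 to 8225 CPM in vehicle and 10350 to 11890 CPM in β-NMN libraries. In tissue or mixed cells, fewer cells of a type and less RNA per cell cannot be told apart.

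In peritoneal cells stimulated with E. coli, β-NMN-treated mice had lower levels of Ido1 and Kynu, the enzymes at the entry of the pathway and at its branch to anthranilates, while no change was called in the 5 other genes that could be tested. Of the 9 genes, 7 passed the filter on low counts, and 2 of these 7 were called lower and 0 higher by edgeR's quasi-likelihood test at a Benjamini-Hochberg adjusted p below 0.05. Over all 14985 genes tested, 27.9% were called lower, 23.7% higher and 51.6% in either direction, so the share of called members was not above that of genes at large. The median log2 fold change was −0.17 over the 7 genes and −0.02 over all genes.

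Ido1 reached 11.5, 10.5, 2.10, 3.49, 8.11 and 10.99 CPM in vehicle mice 1 to 6. The β-NMN mice had 2.22, 2.06, 2.02, 1.54, 3.49 and 4.33 CPM. Vehicle mice 3 and 4 had the lowest levels of their group and lay within the range of the β-NMN mice, while the other 4 vehicle mice were above all β-NMN mice. The means were 7.78 ± 4.05 and 2.61 ± 1.07 CPM (SD, n = 6 each), a 2.99-fold lower level with β-NMN. The log2 fold change was −1.58 (SE 0.38, 95% interval −2.39 to −0.77), with an adjusted p of 0.00293 in edgeR's quasi-likelihood test, and a two-sided exact permutation test gave p = 0.0238. The 7 peritoneal libraries of lower depth (31126823 to 53319385 reads) were 3 vehicle and 4 β-NMN, and the 5 deeper ones 3 vehicle and 2 β-NMN. Among the shallower libraries alone, the log2 fold change of Ido1 was −1.47 (adjusted p 0.0586, edgeR's quasi-likelihood test), so the call was lost. Among the deeper ones alone it was −1.75 (adjusted p 0.0263 in the same test).

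Kynu ranged from 4.57 to 13.5 CPM in vehicle mice, with a median of 8.06 CPM. In β-NMN mice it ranged only from 2.36 to 3.09 CPM, with a median of 2.96 CPM. The groups did not overlap, as in 1 of the 7 tested members, while 26.6% of all genes tested had groups that did not overlap, 14.0% with lower and 12.6% with higher β-NMN values. Vehicle mouse 3, low in Ido1, also had the lowest Kynu of its group, whereas vehicle mouse 4, at 8.06 CPM, was at the group's median. The means were 8.41 ± 2.86 and 2.87 ± 0.271 CPM, a 2.93-fold lower level, with a log2 fold change of −1.55 (SE 0.20, 95% interval −1.97 to −1.14), and an adjusted p of 1.43e-05 in edgeR's quasi-likelihood test. A two-sided exact permutation test gave 0.00216, which is as small as 6 mice against 6 allow. Kynu was called lower in the deeper libraries alone (−1.69) and in the shallower ones alone (−1.24).

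**Figure D1:**
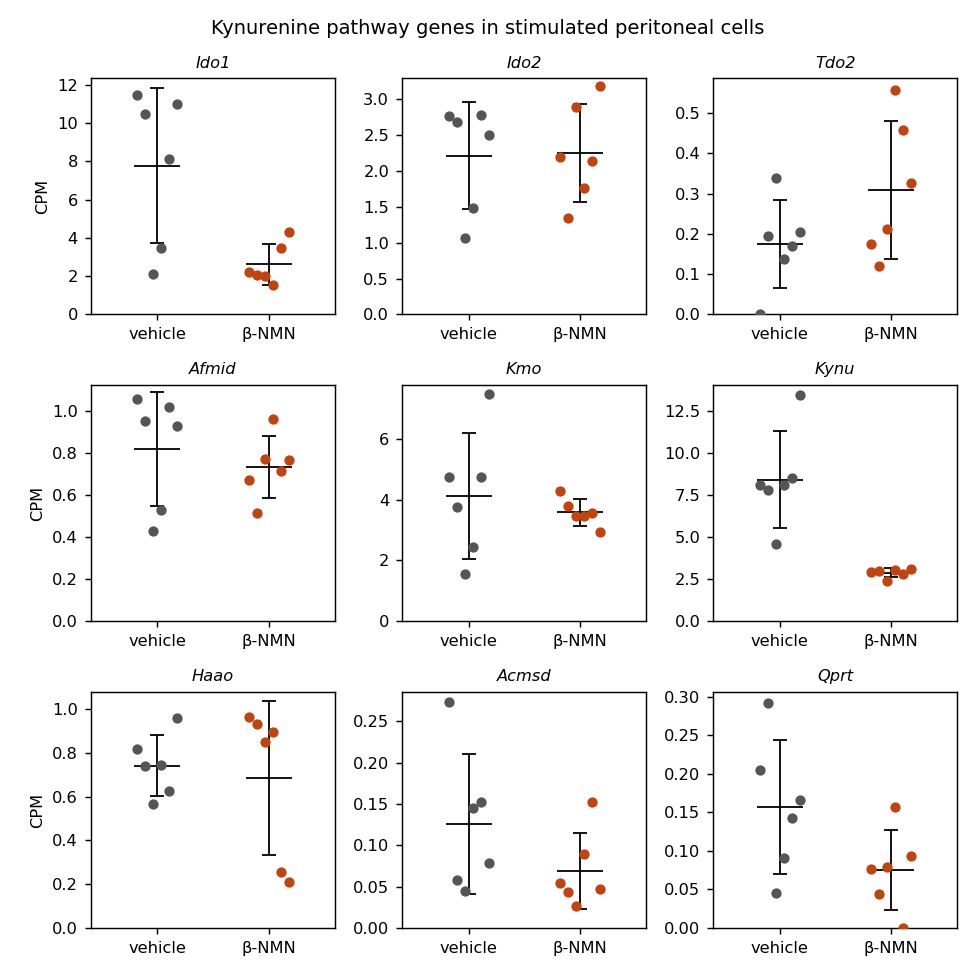
Level (CPM, linear axis from 0) of each of the 9 genes in E. coli-stimulated peritoneal cells; each point is 1 mouse, with 6 vehicle (gray) and 6 β-NMN mice (orange) in order of replicate number, and the bar and whiskers are mean ± SD. The β-NMN mice sit at 2.36 to 3.09 CPM for Kynu, below every vehicle mouse, whereas for Ido1 vehicle mice 3 and 4 (2.10 and 3.49 CPM) fall among the β-NMN mice.

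Ido2, the neighbor of Ido1, had 2.21 ± 0.747 CPM in vehicle and 2.26 ± 0.687 CPM in β-NMN mice. The ranges, 1.06 to 2.78 CPM and 1.35 to 3.19 CPM, overlapped almost fully. Its log2 fold change was 0.02 with a 95% interval of −0.54 to 0.58 (adjusted p 0.955, edgeR's quasi-likelihood test). Vehicle mice 3 and 4 were also the lowest vehicle mice for Ido2, at 1.06 and 1.48 CPM. Tdo2 was scarce, from 0 to 0.339 CPM in vehicle and 0.121 to 0.559 CPM in β-NMN mice, with 0 reads in vehicle mouse 1, where 3 reads would be 0.102 CPM, a limit that covers counting error only. Its log2 fold change of 0.74 (95% interval −0.32 to 1.802) had an adjusted p of 0.231 in edgeR's quasi-likelihood test.

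Levels of different genes were compared per kilobase of exon. On this scale Ido1 was the most abundant of the 9 genes in vehicle peritoneal cells at 4.26 ± 2.22 CPM per kb (n = 6), followed by Kynu (1.37 ± 0.465), Kmo (0.872 ± 0.44) and Ido2 (0.609 ± 0.205). Afmid (0.232 ± 0.0762) and Haao (0.159 ± 0.0299) came next, and Qprt (0.0594), Tdo2 (0.0449) and Acmsd (0.0443) were lowest, with overlapping ranges. In β-NMN mice Ido1 stood at 1.43 ± 0.584 CPM per kb, followed by Kmo (0.759 ± 0.0939), Ido2 (0.621 ± 0.189) and Kynu (0.467 ± 0.0441). The ranges of Ido1 and Kmo overlapped in both groups, since the lowest Ido1 values were 1.15 CPM per kb in vehicle and 0.845 in β-NMN mice and the highest Kmo values 1.58 and 0.907.

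Taken per length, Ido1 made up 84.5 ± 5.51% of the reads of the 3 dioxygenases in vehicle mice (range 75.2 to 89.2%). In β-NMN mice it made up 66.2 ± 7.77% (range 56.5 to 73.8%). Ido2 held 13.9 ± 3.72% and 29.8 ± 6.81%, and Tdo2 1.597 ± 2.07% and 4.01 ± 2.95%. The highest β-NMN share of Ido1 was below the lowest vehicle share, and since the shares restate the levels above, they are given without a test.

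**Figure D2:**
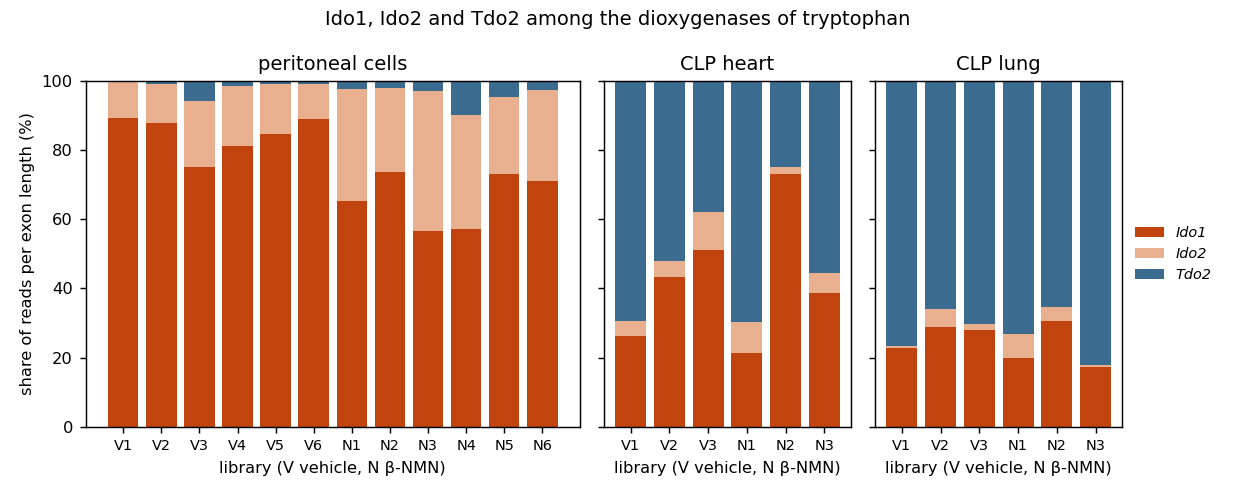
Share (%) of Ido1, Ido2 and Tdo2 in the reads per exon length of these 3 genes, 1 bar per library, in peritoneal cells (6 vehicle, 6 β-NMN) and in CLP hearts and lungs (3 and 3 each). Ido1 takes 56.5 to 89.2% in peritoneal cells, whereas Tdo2 takes the largest share in all 6 lungs.

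Afmid, which releases kynurenine, had 0.820 ± 0.27 CPM in vehicle and 0.733 ± 0.146 CPM in β-NMN mice, with a log2 fold change of −0.17 (95% interval −0.71 to 0.38) and an adjusted p of 0.617 in edgeR's quasi-likelihood test. Kmo, which hydroxylates kynurenine, had 4.12 ± 2.08 and 3.59 ± 0.444 CPM, with a log2 fold change of −0.20 (95% interval −0.80 to 0.40) and an adjusted p of 0.576. Vehicle mice spread from 1.54 to 7.48 CPM for Kmo and enclosed the β-NMN range of 2.93 to 4.28 CPM, again with vehicle mice 3 and 4 lowest. Haao had 0.742 ± 0.14 CPM in vehicle and 0.684 ± 0.353 CPM in β-NMN mice (log2 fold change −0.09, 95% interval −0.83 to 0.64, adjusted p 0.839). Within the β-NMN group, mice 5 and 6 had only 0.255 and 0.209 CPM of Haao, while mice 1 to 4 had 0.850 to 0.967 CPM.

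The enzymes at the NAD+ end, Acmsd and Qprt, were close to the limit of detection in peritoneal cells and failed the filter. Acmsd had 76 reads over all 12 libraries and ranged from 0.0452 to 0.273 CPM in vehicle and from 0.0266 to 0.153 CPM in β-NMN mice (exact two-sided permutation p 0.171). Qprt had 91 reads, with 0.0452 to 0.292 CPM in vehicle and 0 to 0.156 CPM in β-NMN mice (exact two-sided permutation p 0.0823). Fitted without the filter, the log2 fold change was −0.83 (SE 0.71) for Acmsd and −1.05 (SE 0.66) for Qprt, with adjusted p of 0.536 and 0.36 in edgeR's quasi-likelihood test.

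**Figure D3:**
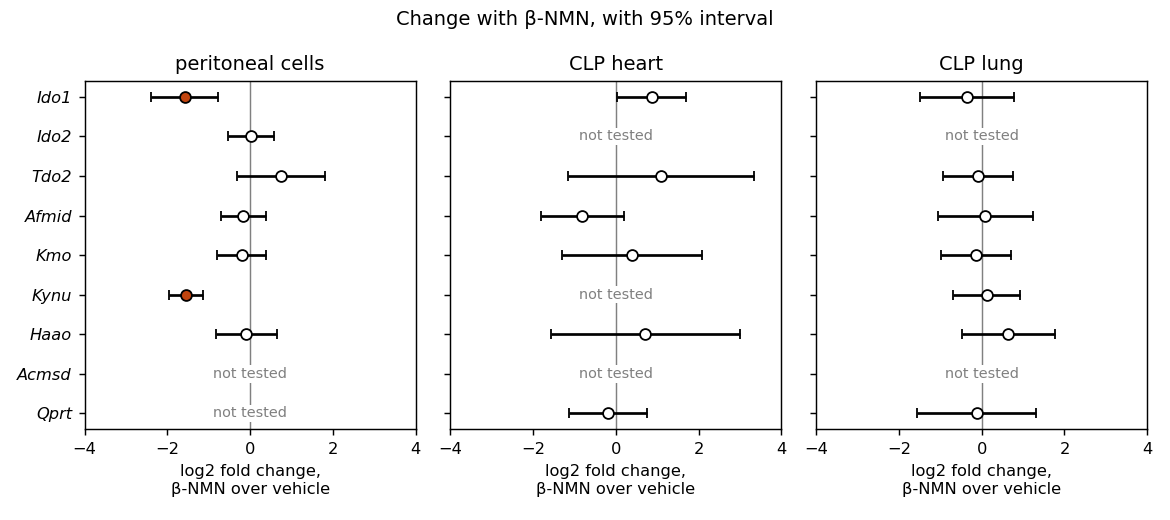
Log2 fold change of β-NMN over vehicle (horizontal axis) with its 95% interval for the 9 genes in peritoneal cells (6 mice per group), CLP hearts and CLP lungs (3 mice per group), filled where the adjusted p of edgeR's quasi-likelihood test was below 0.05; genes that failed the low-count filter are marked as not tested. Ido1 (−1.58) and Kynu (−1.55) in peritoneal cells are the filled points.

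Genes around the pathway were examined in the same peritoneal fit. Among 4 tested transaminases and side-branch enzymes, Kyat3, which makes kynurenic acid, was called lower at 3.75 ± 0.744 CPM in vehicle and 1.72 ± 0.414 CPM in β-NMN mice (log2 fold change −1.14, adjusted p 0.000134 in edgeR's quasi-likelihood test), with no overlap. Got2, a mitochondrial aspartate aminotransferase that can also use kynurenine, was called higher (0.32, adjusted p 0.0353). The last steps to NAD+, Nmnat1, Nmnat2, Nmnat3 and Nadsyn1, held 0 called genes of 4, and the smallest p belonged to Nadsyn1 (log2 fold change −0.25, adjusted p 0.229). The median log2 fold change was −0.46 over the transaminases and −0.14 over the last steps.

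Of 7 tested genes for other uses of tryptophan, 2 were called lower and 0 higher. Il4i1, a secreted amino acid oxidase that also acts on tryptophan, went from 0.589 ± 0.252 to 0.247 ± 0.0938 CPM (log2 fold change −1.28, adjusted p 0.00665 in edgeR's quasi-likelihood test), and Tph1, the entry to serotonin, from 8.24 ± 3.18 to 5.02 ± 1.33 CPM (−0.72, adjusted p 0.0207). Of 6 amino acid transporters, 3 were called lower and 0 higher. Slc7a5 and Slc3a2, the subunits of the transporter LAT1 that carries tryptophan and kynurenine, had log2 fold changes of −0.96 (adjusted p 0.000172) and −0.54 (adjusted p 0.00696), and Slc7a8 had −0.26 (adjusted p 0.0216). For Slc7a5 the groups did not overlap, with 108 ± 24.7 CPM in vehicle and 55.5 ± 12.4 CPM in β-NMN mice.

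The interferon-γ list, upstream of Ido1, held 5 lower and 1 higher gene of 14, with a median log2 fold change of −0.095. Ifng itself was called lower, at 617 ± 403 CPM in vehicle and 201 ± 44.2 CPM in β-NMN mice (log2 fold change −1.62, adjusted p 0.00168 in edgeR's quasi-likelihood test). In vehicle mice 1 to 6 Ifng had 706, 651, 180, 287, 554 and 1325 CPM. Mice 3 and 4, the vehicle mice lowest in Ido1, were also the lowest in Ifng, while mouse 6, the highest in Ifng, was second to mouse 1 in Ido1. The β-NMN mice did not follow this order, as mouse 6 had the lowest Ifng (133 CPM) and the highest Ido1, and mouse 4 the highest Ifng (256 CPM) and the lowest Ido1. The receptor chains Ifngr1 (−1.42) and Ifngr2 (−0.21), the kinase gene Jak2 (−0.36) and the feedback inhibitor Socs3 (−0.98) were the other called lower genes. The transcription factor Irf8 (0.78, adjusted p 0.0202) was called higher. The downstream targets Irf1, Gbp2, Cxcl9, Cxcl10, Ciita, Socs1 and Cd274 were not called, with log2 fold changes between −0.55 and 0.50.

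Of the 7 tested genes of AhR signaling and the kynurenic acid receptor, 5 were called lower and 0 higher, with a median log2 fold change of −1.79. Cyp1b1 (−3.25), Nqo1 (−3.11), Ahrr (−1.79) and Gpr35 (−2.81) did not overlap between groups, as was the case for 26.6% of all genes tested. Arnt, the partner of AhR, had −0.30, and Cyp1a1 and Cyp1a2 failed the filter on low counts. The receptor gene Ahr itself, at 12.6 ± 3.32 and 14.2 ± 2.05 CPM, was not called (0.16, adjusted p 0.433, edgeR's quasi-likelihood test), nor was Tiparp (0.21). The lists were chosen with earlier results of these data known, and their counts are descriptions beside the 27.9% and 23.7% of all genes called lower and higher.

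**Figure D4:**
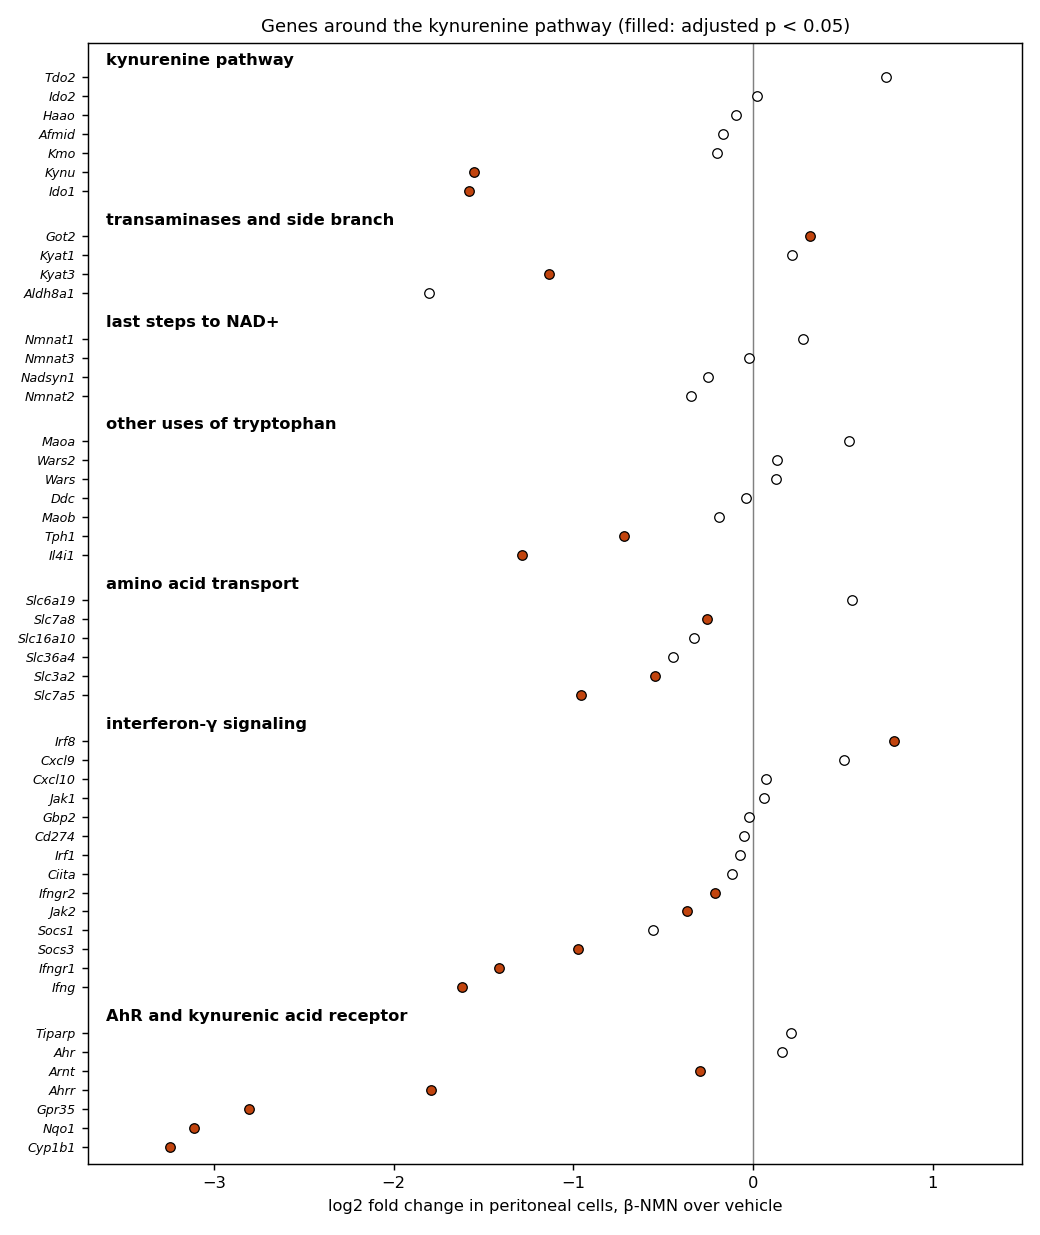
Log2 fold change of β-NMN over vehicle in peritoneal cells (n = 6 per group) for each tested gene of the pathway and of 6 lists around it, 1 point per gene, filled where the adjusted p of edgeR's quasi-likelihood test was below 0.05. Cyp1b1 (−3.25), Nqo1 (−3.11) and Gpr35 (−2.81) lie farthest to the left, and the 4 genes of the last steps to NAD+ are all unfilled.

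Markers of other cell types moved with treatment in the same libraries. The 7 dendritic cell markers summed to 246 to 310 CPM in vehicle and 52.4 to 68.9 CPM in β-NMN mice, with 5 of 7 called lower and 1 higher. Most of this sum came from Ccr7 and Fscn1. They had 138 and 75.2 of 246 CPM in vehicle mouse 1, and 26.1 and 14.7 of 54.8 CPM in β-NMN mouse 3. The 5 T and NK cell markers, cells that make interferon-γ, summed to 11.1 to 63.2 CPM and 7.63 to 10.97 CPM, with 5 of 5 called lower, and the 6 neutrophil markers to 489 to 990 CPM and 334 to 467 CPM, with 4 called lower and 1 higher. Ccr7, a marker of mature dendritic cells, had 129.9 to 158 CPM in vehicle and 22.6 to 36.7 CPM in β-NMN mice. By comparison, 27.9% of all genes tested were called lower and 23.7% higher. Vehicle mice 3 and 4, low in Ido1 and Ifng, had the lowest vehicle sums of T and NK cell (11.1 and 24.8 CPM), neutrophil (489 and 588 CPM), B cell (30.6 and 55.5 CPM) and eosinophil markers (8.23 and 11.2 CPM), and dendritic sums of 253 and 310 CPM. The part of these cells in the lower Ido1 and Kynu was not tested.

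For each tested member, the 3 genes whose log2 CPM followed it most closely over the 12 peritoneal libraries were taken from all genes of at least 1 on the log2 CPM scale. Both treatment groups enter these Pearson correlations, so a shared difference between groups contributes to them. Ido1 was followed by Upp1 (r = 0.969), Cdyl (0.962) and Fmnl2 (0.958), and Kynu by Serpinb9 (0.990), P2ry10 (0.990) and Sytl3 (0.987). All 6 of these genes were called lower with β-NMN, from −0.30 for Fmnl2 to −2.08 for Sytl3 on the log2 scale. Ido2 was followed by Phf11c (0.924), Parp12 (0.905) and Nlrc5 (0.904), none of them called. Kmo was closest to Zbtb32 (0.958), Ehd3 (0.952) and Hmgn3 (0.945), Haao to Slc2a3 (0.923), Tmem71 (0.918) and Eef2k (0.912), Afmid to Cnot6 (0.895), Upf2 (0.892) and Tra2a (0.886), and Tdo2 to Rbbp5 (0.857), Zxdb (0.842) and Alkbh8 (0.836).

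In CLP hearts no member was called. Of the 9 genes 6 passed the filter, and edgeR's quasi-likelihood test gave adjusted p between 0.435 and 0.821, with 1 gene at an unadjusted p below 0.05. The background was a called share of 0% of 16245 genes, with 1837 genes at an unadjusted p below 0.05 and 262 genes called by DESeq2, of which 0 were members. The median log2 fold change was 0.55 over the 6 members and −0.01 over all genes.

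Ido1 was low in hearts, at 0.230, 0.169 and 0.204 CPM in vehicle mice 1 to 3 and 0.484, 0.333 and 0.310 CPM in β-NMN mice. All 3 β-NMN hearts lay above all 3 vehicle hearts, as in 1 of the 6 tested members, while 23.1% of all heart genes tested had groups that did not overlap, 11.6% with higher and 11.5% with lower β-NMN values. The log2 fold change of 0.86 (95% interval 0.03 to 1.69) had an unadjusted p of 0.0445 and an adjusted p of 0.435 in edgeR's quasi-likelihood test, and a two-sided exact permutation test gave 0.1, below which 3 mice against 3 cannot go. The values rest on 7 to 20 reads per heart. Per length, Ido1 made up 40.2 ± 12.8% of the dioxygenase reads in vehicle and 44.3 ± 26.4% in β-NMN hearts, and Tdo2 53.1 ± 15.9% and 50.04 ± 22.97%. Ido2 failed the filter with 28 reads over 6 hearts, and Ifng was at 0 reads in all 3 vehicle hearts.

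Tdo2 reached 1.31, 0.433 and 0.320 CPM in vehicle hearts and 3.39, 0.240 and 0.946 CPM in β-NMN hearts. The spread within groups exceeded the difference between them, with a log2 fold change of 1.08 (95% interval −1.17 to 3.34, adjusted p 0.587, edgeR's quasi-likelihood test). Kmo showed the same leading hearts, with 0.738, 0.376 and 0.204 CPM in vehicle and 1.23, 0.259 and 0.357 CPM in β-NMN mice (log2 fold change 0.38). Haao had 0.369, 0.489 and 0.0873 CPM in vehicle and 1.34, 0.111 and 0.264 CPM in β-NMN hearts (0.71). β-NMN mouse 1 was highest for all 3 genes, and without its heart the log2 fold changes were −0.22 for Tdo2, −0.53 for Kmo and −0.76 for Haao.

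Hepatocyte markers were compared with these values. The 5 markers Alb, Apoa1, Ttr, Serpina1a and Fgb summed to 119, 2.14 and 9.23 CPM in vehicle hearts 1 to 3 and to 215, 5.28 and 29.3 CPM in β-NMN hearts. β-NMN heart 1 and vehicle heart 1, which led in Tdo2 and Kmo, had the highest sums, and β-NMN heart 3 ranked next both in Tdo2 and in the sum. Vehicle heart 2 had the lowest sum but was second highest for Haao, at 0.489 CPM, and at 0.376 CPM of Kmo lay above β-NMN heart 3 at 0.357 CPM. All 5 markers had a higher β-NMN mean, with a median log2 fold change of 0.81 and 0 called. The part of liver RNA in the heart levels of Tdo2, Kmo and Haao was not tested.

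Afmid was the most abundant of the 9 genes per length in vehicle hearts, at 0.427 ± 0.183 CPM per kb (n = 3), followed by Qprt (0.290 ± 0.11) and Tdo2 (0.177 ± 0.139), with overlapping ranges. In CPM, Afmid had 0.891, 2.18 and 1.46 in vehicle and 0.559, 0.887 and 1.10 in β-NMN hearts. The groups overlapped, and the log2 fold change was −0.81 (95% interval −1.80 to 0.18, adjusted p 0.457, edgeR's quasi-likelihood test), or −0.43 without vehicle mouse 2. Qprt had 0.768 ± 0.292 and 0.680 ± 0.17 CPM (log2 fold change −0.19, 95% interval −1.13 to 0.76, adjusted p 0.821), or −0.49 without vehicle mouse 2. Without that mouse the log2 fold changes in hearts were 0.73 for Ido1, 0.78 for Tdo2, 0.22 for Kmo and 1.07 for Haao. Kynu and Acmsd failed the filter in hearts with 31 and 34 reads in all, and Kynu was at 0 reads in vehicle heart 3 and β-NMN heart 2, where 3 reads would be 0.0873 and 0.0554 CPM.

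The lists around the pathway held 0 called genes in hearts. The smallest p of each list belonged to Aldh8a1 (log2 fold change 1.41) among transaminases and side branch, Nmnat2 (−1.57) among the last steps to NAD+, Inmt (1.52) among other uses of tryptophan, Slc7a8 (−0.68) among transporters, Socs3 (−2.32) in the interferon-γ list and Gpr35 (−1.04) in the AhR list. Their adjusted p ranged upward from 0.435 in edgeR's quasi-likelihood test.

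In CLP lungs no member was called either. Of the 9 genes 7 passed the filter, with adjusted p between 0.969 and 0.986 in edgeR's quasi-likelihood test and 0 at an unadjusted p below 0.05. The background was 0% of 17008 genes called, 301 genes at an unadjusted p below 0.05 and 9 genes called by DESeq2, of which 0 were members. The groups overlapped in all 7, while they did not in 8.21% of the lung genes tested, 4.47% with higher and 3.75% with lower β-NMN values. The median log2 fold change was −0.09 over the 7 members and 0.00 over all genes. Macrophage markers summed to 1211 to 4249 CPM in vehicle lungs, lowest in mouse 2, and to 4966 to 5428 CPM in β-NMN lungs, and their part in the member values was not tested.

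Tdo2 was the leading dioxygenase of the lung, with 4.86, 5.63 and 3.31 CPM in vehicle and 4.75, 3.33 and 4.84 CPM in β-NMN mice. The ranges overlapped, with 2 vehicle lungs above all β-NMN lungs, and the log2 fold change was −0.09 (95% interval −0.94 to 0.76). Per length, Tdo2 stood at 1.19 ± 0.304 CPM per kb in vehicle lungs (n = 3), above Kmo (0.600 ± 0.0505), with no overlap of the ranges of these 2 genes. Ido1 (0.448 ± 0.161), Haao (0.437 ± 0.195), Qprt (0.427 ± 0.0866) and Kynu (0.406 ± 0.0623) followed within their spread. Tdo2 made up 70.9 ± 5.49% of the dioxygenase reads per length in vehicle and 73.5 ± 8.44% in β-NMN lungs.

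Ido1 in lungs had 0.675, 1.16 and 0.621 CPM in vehicle and 0.609, 0.735 and 0.477 CPM in β-NMN mice, a log2 fold change of −0.37 (95% interval −1.50 to 0.77). These values rest on 8 to 20 reads per lung. The highest value was that of vehicle mouse 2, from 8 reads, and without this mouse the log2 fold change was −0.10. Kynu, 1 of the genes called lower in peritoneal cells, had 2.93, 2.31 and 2.24 CPM in vehicle and 2.74, 2.94 and 2.46 CPM in β-NMN lungs. The groups overlapped, with a log2 fold change of 0.12 (95% interval −0.70 to 0.94). Kmo had 2.83 ± 0.239 and 2.57 ± 0.526 CPM (−0.14, 95% interval −0.98 to 0.70).

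Haao had 2.39, 1.01 and 2.73 CPM in vehicle and 3.41, 4.02 and 2.38 CPM in β-NMN lungs, the largest log2 fold change among the tested members there at 0.64 (95% interval −0.48 to 1.76). The lowest value came from vehicle mouse 2, with 7 reads, and without this mouse the log2 fold change was 0.35. Afmid had 0.976 ± 0.271 and 1.04 ± 0.385 CPM (0.08), and Qprt 1.13 ± 0.229 and 1.07 ± 0.814 CPM (−0.12, 95% interval −1.56 to 1.31), with β-NMN mouse 1 at 2.01 CPM of Qprt, and without that mouse the log2 fold change of Qprt was −0.92. Without vehicle mouse 2 it was −0.28 for Qprt, 0.070 for Tdo2, 0.020 for Afmid, −0.16 for Kmo and 0.064 for Kynu. Ido2 and Acmsd failed the filter with 19 and 25 reads in all. Among the lists, the smallest p belonged to Kyat3 (log2 fold change 0.14), Nmnat3 (−0.54), Inmt (0.87), Slc7a8 (−0.57), Socs1 (−1.17) and Nqo1 (−0.76), each with an adjusted p of 0.969 in edgeR's quasi-likelihood test.

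**Figure D5:**
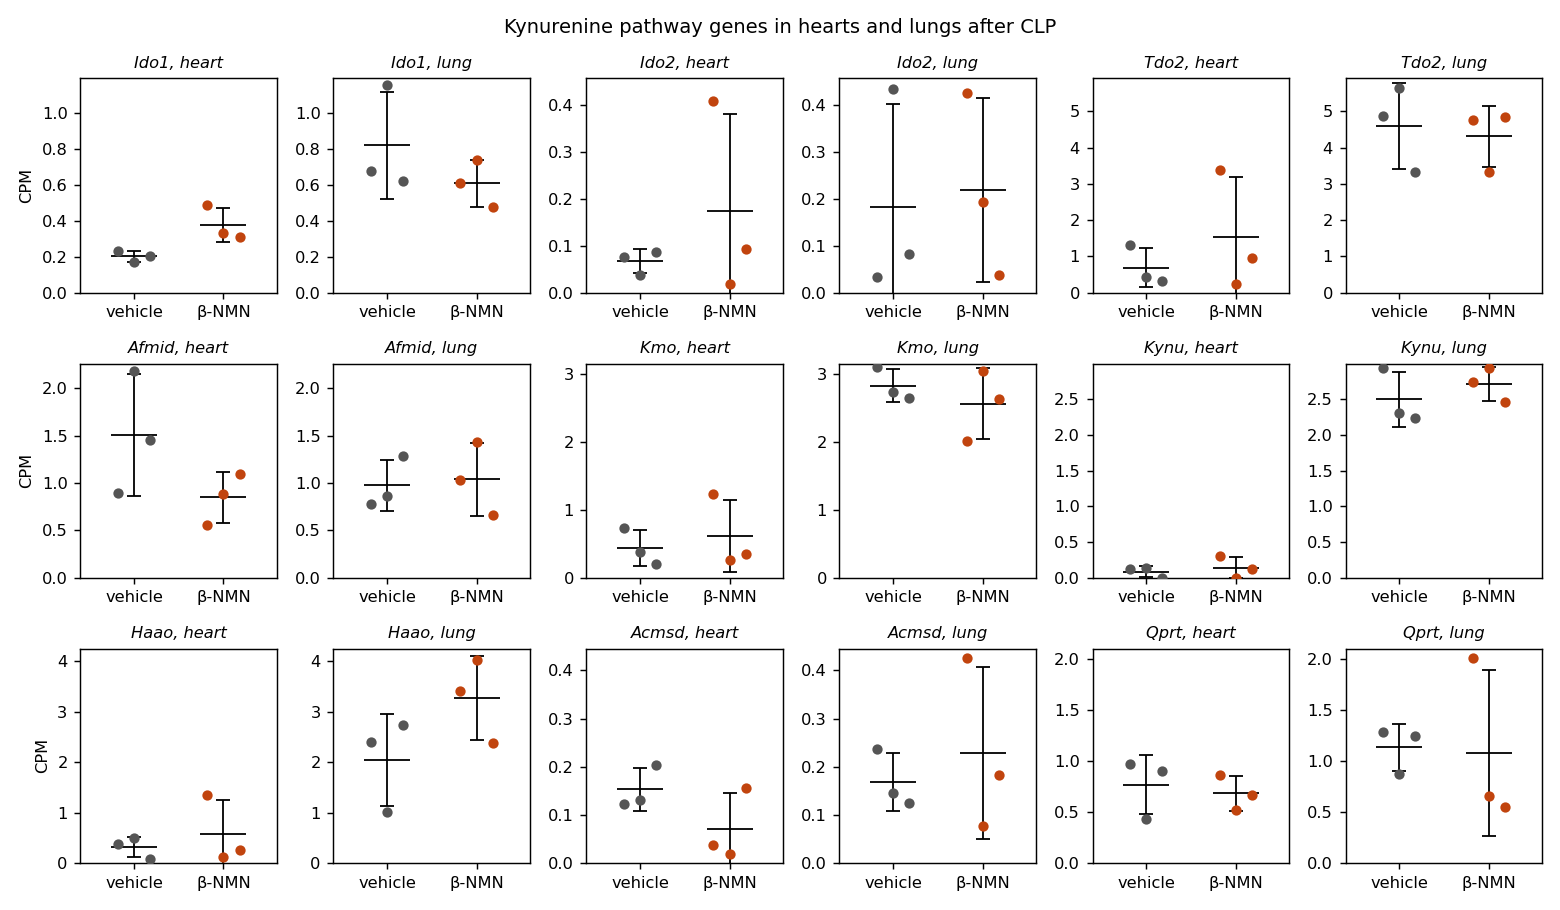
Level (CPM, linear axes from 0, the same scale for heart and lung of a gene) of the 9 genes in CLP hearts and lungs; each point is 1 of 3 vehicle (gray) or 3 β-NMN mice (orange), with mean ± SD. Kynu is at 2.24 to 2.94 CPM in lungs and at 0 to 0.298 CPM in hearts, and the β-NMN heart with the most Tdo2 (3.39 CPM) is also the highest in Kmo and Haao.

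Both organs of the same 6 mice were compared with the mouse as a block. Of the 6 members that passed the filter in each organ alone, 3 were called higher in lung and 0 higher in heart, while 34.6% of 18318 genes were called higher in lung, 29.2% higher in heart and 63.9% in either direction. The median log2 difference, lung over heart, was 1.25 over these 6 members and 0.10 over all genes. Kynu failed the filter in hearts and entered the comparison only through the lungs, so its values are a description, with 2.24 to 2.94 CPM in lungs and 0 to 0.298 CPM in hearts. Haao was 4.84-fold higher in lung (log2 2.27, adjusted p 0.0113 in edgeR's quasi-likelihood test), Kmo 3.81-fold (1.93, adjusted p 0.0044) and Tdo2 3.70-fold (1.89, adjusted p 0.00755).

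Kmo had no overlap between the organs, with at most 1.23 CPM in hearts and at least 2.01 CPM in lungs, whereas the heart of β-NMN mouse 1, with the highest hepatocyte sum, reached the lung range for Tdo2 and Haao. Without this mouse the log2 difference of Tdo2 was 2.30 and that of Haao 2.66. Ido1 was not called between the organs (log2 0.62, 95% interval −0.24 to 1.49, adjusted p 0.18, edgeR's quasi-likelihood test), nor was Qprt (−0.16, adjusted p 0.648). Afmid, at −0.80 (95% interval −1.60 to 0.0045), had an adjusted p of 0.0752, and was called higher in heart by DESeq2 (adjusted p 0.028) and without vehicle mouse 2 (adjusted p 0.0485). Markers of blood and immune cells differed between the organs as well, with 6 of 6 neutrophil, 5 of 5 T and NK cell and 4 of 4 B cell markers called higher in lung. Of 7 dendritic markers 5 were called higher in lung and Fscn1 higher in heart, and of 6 macrophage markers 3 were called higher in lung (Lyz2, Cd68 and Mertk) and Adgre1 higher in heart. Of these markers, 1 neutrophil, 3 dendritic, 4 T and NK cell and 2 B cell markers passed the filter only through the lungs. Their values are descriptions and their calls carry no weight. The part of these cells in the levels of Kynu, Kmo and Haao was not tested.

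The genes around the pathway did not share that direction. Kyat1 (log2 −1.09), Kyat3 (−2.18) and Got2 (−4.12), all 3 tested transaminases, were called higher in heart, as were Nmnat1 (−2.52) and Nmnat3 (−2.80), whereas Nmnat2 (2.77) was called higher in lung. Among other uses of tryptophan, Inmt (7.45), Wars (0.98) and Maoa (1.74) were called higher in lung and Maob (−1.74), Ddc (−1.94) and Wars2 (−0.52) higher in heart. Of the transporters, Slc3a2 (1.31) was called higher in lung and Slc7a8 (−0.78) and Slc16a10 (−0.74) higher in heart. In the interferon-γ list 4 genes were called higher in lung, Ciita (3.05), Irf1 (1.24), Ifngr1 (1.21) and Irf8 (1.02), and 4 higher in heart, Cxcl9 (−2.92), Jak1 (−0.92), Ifngr2 (−0.82) and Jak2 (−0.54). In the AhR list Cyp1a1 (6.80) was called higher in lung and Nqo1 (−3.32), Ahrr (−4.73), Arnt (−0.62) and Cyp1b1 (−2.14) higher in heart. Of these genes, Cyp1a1 passed the filter only through the lungs and Cxcl9 and Ahrr only through the hearts, so their values are descriptions.

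Whether the change with β-NMN differed between the organs was tested as an interaction over the 12 CLP libraries. Of the 6 members that passed the filter in each organ alone 0 were called, with adjusted p between 0.948 and 0.979 in edgeR's quasi-likelihood test and 0 at an unadjusted p below 0.05, against a called share of 0% of 18318 genes, 498 genes at an unadjusted p below 0.05 and 12 genes called by DESeq2. The largest difference, lung minus heart, was that of Ido1 at −1.21 (95% interval −2.82 to 0.40). The intervals of the other members reached from −2.98 for Tdo2 to 3.37 for Haao. The smallest p of each list belonged to Got2 (−0.30), Nmnat2 (1.22), Maob (0.90), Slc3a2 (0.34), Nqo1 (−1.09) and Socs3 (1.62), with an adjusted p of 0.948 for each.

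Set side by side, the tissues differed in which enzyme led, although peritoneal cells and organs were counted in separate tables and scaled separately, so no test was made across them. Vehicle Ido1 was 4.26 CPM per kb in peritoneal cells, 0.448 in lung and 0.110 in heart, with no overlap between peritoneal cells and lung (lowest 1.15 against highest 0.633) or between lung and heart (0.340 against 0.126). Kynu ran in the same order, at 1.37, 0.406 and 0.0138 CPM per kb, again without overlap. Tdo2 ran in another order, at 1.19 in lung, 0.177 in heart and 0.0449 CPM per kb in peritoneal cells, where the ranges of heart and peritoneal cells overlapped only from 0.0825 to 0.0874. Qprt was highest in lung (0.427) and heart (0.290), whose ranges overlapped, and lowest in peritoneal cells (0.0594 CPM per kb). The change of Kynu with β-NMN was −1.55 in peritoneal cells and 0.12 in lung, and that of Ido1 −1.58 in peritoneal cells, 0.86 in heart and −0.37 in lung, and the differences between these values were not tested.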

How the data were processed

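RNA-seq was analysed from 12 peritoneal cell, 6 heart and 6 lung samples. The deposited values are counts of reads per gene symbol, which the authors made from poly(A) RNA with STAR and featureCounts on mm10 without normalization. The submitters' processing notes name STAR 2.7.3a and featureCounts 2.0.0, with annotation and strand setting not given in the sources used here. The reads are described both as single-end and as paired-end. Of 54658 symbols, 54106 were found in GENCODE M21, from which positions, exon lengths and transcripts were taken.

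A separate fit per tissue was made in R 4.3.3 with edgeR 4.0.16 (low-count filter filterByExpr, TMM scaling, the older quasi-likelihood F-test). Adjusted p are Benjamini-Hochberg values over all genes tested, with calls below 0.05. Organs were compared, and the interaction tested, with the mouse as a block. CPM were TMM-scaled. For log2 CPM the prior count was 2, and exact permutation tests (two-sided) compared their means for single genes. Alternatives were DESeq2 1.42.0 and its size factors, limma-voom with quality weights (limma 3.58.1), the newer quasi-likelihood fit, no filter, a replicate block and leaving out each mouse.

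Samples were grouped by their labels. A pair of β-NMN hearts is labelled replicate 3, of which the heart paired with β-NMN lung 2 was used as replicate 2. Both organs of a mouse share its identifier in the labels. Same-numbered vehicle and β-NMN samples did not deviate together in every pair. The members and lists were chosen with earlier results of these data known, and 1 gene of the interferon-γ list is not reported here. All 9 members are described, and of each list the called genes (at most 8, those with the smallest p) or else the gene with the smallest p.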

Additional observations from a re-analysis of the deposited data

Results flagged for a closer look

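None of the 18 groups of 6 peritoneal libraries, vehicle or β-NMN, for each of the 9 members held a library that Dixon's rule set apart, where chance would flag about 1 in 20 groups. Among 43 members and genes around the pathway tested in both peritoneal cells and hearts, 7 had groups that did not overlap in both tissues at once. For 4 of them the direction was the same and for 3 it was opposite. Within a single tissue, the groups did not overlap for 26.6% of all peritoneal and 23.1% of all heart genes. The share of all genes apart in both tissues at once was not computed, so the 7 genes have no matching background. The differences between tissues were not tested. Ifngr1, a chain of the interferon-γ receptor, had a log2 fold change of 0.22 in hearts, with all 3 β-NMN hearts above the vehicle hearts, and −1.42 in peritoneal cells, with all 6 β-NMN libraries below. Irf8 had 0.78 in peritoneal cells and −0.89 in hearts. Ahrr, the AhR repressor, had 1.25 in hearts and −1.79 in peritoneal cells. In hearts none of the 3 genes was called.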

How the results depend on the processing

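Ido1 and Kynu were called lower in peritoneal cells under every alternative planned, without each library in turn (Ido1 −1.75 to −1.41, Kynu −1.64 to −1.37) and with depth class as a term, and Ido1 was lost only among the shallower libraries. The depth term and the split by depth were chosen after seeing the data. The count of genes called in peritoneal cells stayed between 6775 and 8863 under the alternatives with all libraries and between 7132 and 8049 without 1 library. Some members that were not called turned direction. Ido2 was −0.015 with the newer fit, −0.25 with limma-voom, −0.028 with the depth term and −0.29 in deep libraries. Haao was 0.078 with limma-voom and 0.36 in deep libraries, Tdo2 −0.14 in deep libraries, and Afmid 0.020 and Kmo 0.044 in shallow ones. In hearts 3 genes were called without the filter, 262 by DESeq2 and 3 by limma-voom, in lungs 9 by DESeq2 and 7 by limma-voom, and in the interaction 12 by DESeq2, with 0 members in each. Under limma-voom Tdo2 was −0.076 and Kmo −0.12 in hearts, and Tdo2 0.041, Afmid −0.14 and Kynu −0.069 in lungs. The interaction without the replicate block was −0.12 for Haao and 0.044 for Qprt. Without 1 mouse, peritoneal Haao ran from −0.21 to 0.12, Ido2 from −0.078 to 0.14 and Kmo from −0.33 to 0.060. In hearts Haao ran from −0.76 to 1.25, Kmo from −0.53 to 0.99, Qprt from −0.49 to 0.031 and Tdo2 from −0.22 to 1.96, and 0 to 5 genes were called, 5 without vehicle mouse 2. In lungs Afmid ran from −0.22 to 0.37, Kmo from −0.28 to 0.0056, Qprt from −0.92 to 0.21 and Tdo2 from −0.26 to 0.074. The interaction ran from −0.53 to 1.34 for Haao, −0.998 to 0.42 for Kmo, −1.17 to 0.74 for Kynu, −0.53 to 0.18 for Qprt and −1.51 to 0.11 for Tdo2, with 0 to 2 genes called, 2 without vehicle mouse 2. Between organs, where 63.9% of all genes were called, the count of members, Kynu included, was 4, and 5 by DESeq2, without the replicate block or without vehicle mouse 2, the addition being Afmid. Kynu entered only through the lungs and its call carries no weight. The causes were not tested.

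Same-numbered samples deviated together with correlations of −0.17 to 0.13 in peritoneal cells, 0.07 to 0.24 in hearts and −0.52 to 0.30 in lungs. Each vehicle heart correlated best with the β-NMN heart of its own number, and the reverse was not examined. With the replicate number as a block, 7010 peritoneal genes and 2 members were called, while hearts and lungs had 0 genes called, and the call of no member changed. Few reads limited Acmsd in all tissues, Qprt in peritoneal cells, Ido2 in both organs and Kynu in hearts, which failed the filter. Without the filter none of them was called for β-NMN (adjusted p 0.36 to 0.982, edgeR's quasi-likelihood test). With 3 mice per group the intervals in hearts and lungs reached log2 fold changes of more than 0.7 for every tested member.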
